A study of Mus musculus with 4 samples.

Results

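Eicosanoids are short-lived lipid signals made from arachidonic acid, and 10 genes of their synthesis and sensing were followed here in ILC2s, the group 2 innate lymphoid cells of tissues, which secrete type 2 cytokines without an antigen receptor. The 10 were chosen by name, and all 10 were found among the 19088 genes of the deposited table; 9 of them reached a mean of 1 FPKM and were tested. They fall into 4 roles: prostaglandin synthesis (Ptgs1, Ptgs2 and Hpgds), prostanoid receptors (Ptgdr2, Ptgir and Ptger4), leukotriene synthesis (Alox5, Alox5ap and Ltc4s) and a leukotriene receptor (Cysltr1). The level is given in FPKM, fragments scaled by transcript length and by the mapped fragments of the library, which allows genes to be compared per length.

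The ILC2s were sorted from epididymal fat of male C57BL/6 mice aged 8 weeks, with 2000 to 4000 cells behind each library. The KO group (2 libraries) has the genotype R5/+Stk11f/f, in which Stk11 is floxed, and the WT group (2 libraries) has the genotype R5/+, so all 4 libraries carry 1 copy of R5. The labels do not describe R5; in work on ILC2s this is the usual short name of a reporter and Cre knock-in at Il5, which would limit deletion to cells that have expressed Il5. Stk11 encodes LKB1, the kinase that activates AMPK and its relatives, and the study's title asks how LKB1 bears on the function and mitochondria of adipose ILC2s. The labels do not state whether each library is a different animal; the p-values therefore cover the spread among these 4 libraries alone, which may be technical.

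As background, the cyclooxygenases COX-1 (Ptgs1) and COX-2 (Ptgs2) turn arachidonic acid into prostaglandin H2, from which terminal synthases such as haematopoietic prostaglandin D synthase (Hpgds) make single prostaglandins. The 5-lipoxygenase Alox5, presented with its substrate by the membrane protein FLAP (Alox5ap), makes leukotriene A4, which leukotriene C4 synthase (Ltc4s) joins to glutathione to give the cysteinyl leukotrienes. In ILC2s, prostaglandin D2 acting on CRTH2 (Ptgdr2) and cysteinyl leukotrienes acting on CysLT1 (Cysltr1) are known as activating signals, while prostacyclin acting on its receptor IP (Ptgir) and prostaglandin E2 acting on EP4 (Ptger4) are known to restrain the cells.

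Of the 10 genes, Ptgs2 and Ptger4 differed most clearly between KO and WT relative to the spread between libraries, in opposite directions, although neither passed the test over all genes. Their promoter windows are therefore shown, from 250 bases before to 50 bases after the annotated start, in GRCm38.p6 from RefSeq. Capitals mark TGACG, a core piece of the cAMP response element, and GGAAA, the core of NFAT sites, on either strand (read on the opposite strand as CGTCA and TTTCC). The Ptgs2 window lies on the plus strand at chr1:150099781-150100080 and the Ptger4 window on the minus strand at chr15:5244138-5244437.
Ptgs2: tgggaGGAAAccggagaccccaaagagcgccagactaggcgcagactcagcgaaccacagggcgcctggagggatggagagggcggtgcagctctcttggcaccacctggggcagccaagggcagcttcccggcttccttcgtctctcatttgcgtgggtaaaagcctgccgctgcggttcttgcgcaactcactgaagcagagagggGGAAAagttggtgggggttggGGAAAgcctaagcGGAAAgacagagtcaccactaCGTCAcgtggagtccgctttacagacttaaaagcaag
Ptger4: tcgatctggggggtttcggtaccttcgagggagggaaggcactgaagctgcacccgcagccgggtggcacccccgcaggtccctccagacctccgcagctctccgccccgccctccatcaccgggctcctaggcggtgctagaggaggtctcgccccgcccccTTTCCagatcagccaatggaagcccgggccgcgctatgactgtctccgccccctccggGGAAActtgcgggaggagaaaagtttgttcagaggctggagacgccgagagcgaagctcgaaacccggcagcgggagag

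RefSeq windows were found for 8 of the 10 genes, and were not used for Alox5ap and Cysltr1. The windows of Ptgs1 (chr2:36230176-36230475), Ptgdr2 (chr19:10936910-10937209) and Hpgds (chr6:65144681-65144980) lie inside the gene spans given below. The annotated start of these windows is therefore not the outer end of the gene. TGACG occurred in 1 of the 8 windows, that of Ptgs2, on the opposite strand at 13 bases past the annotated start; 20.81% of all 32851 windows of this length hold it. GGAAA occurred in 6 of the 8 windows, against 61.34% of all windows, and 4 times in the Ptgs2 window. The remaining motifs searched, AGATAA for GATA factors and the TATA box TATAAA, occurred in 0 of the 8 windows, against 11.18% and 13.62% of all windows. None of the motifs overlapped another in the windows shown, and a match is a stretch of letters and not a measured site.

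**Figure D1:**
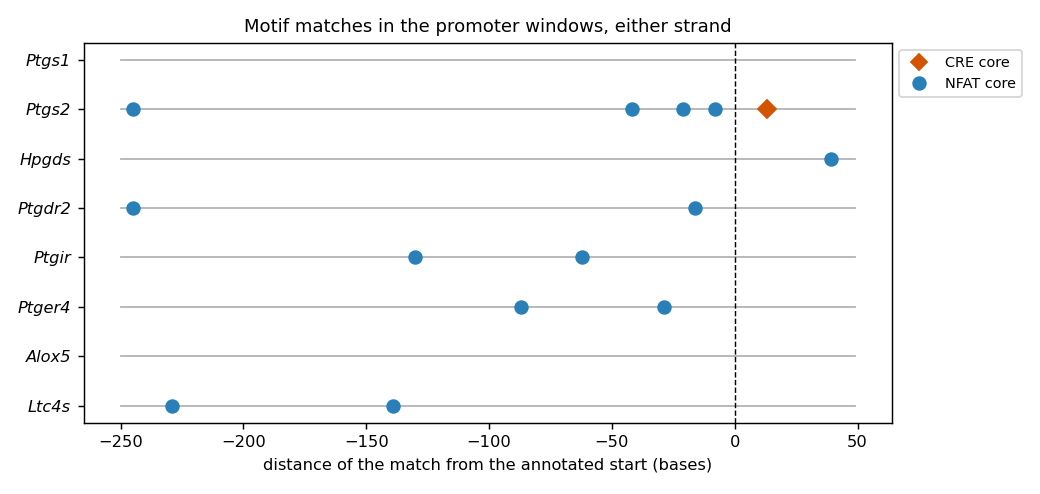
Positions of motif matches on either strand in the promoter windows of 8 eicosanoid genes. Each line is 1 window, the x axis is the distance in bases from the annotated start (dashed), diamonds are TGACG, labelled CRE core, and circles the NFAT core; the Ptgs2 window holds 4 circles and the 1 diamond, at 13 bases past the start.

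Across all genes, 21 of 9818 passed the test between KO and WT (limma on log2(FPKM + 1), adjusted p under 0.05), which is 0.214%, with 0.163% higher and 0.0509% lower in KO; 0 passed with limma run without trend and robust moderation. Stk11 itself was at 31.9 and 16.6 FPKM in the KO libraries, against 43.1 and 39.1 FPKM in the WT libraries, and did not pass (limma, adjusted p = 0.548); a value per gene does not separate the floxed exons from the rest. Between 9044 and 9666 genes reached 1 FPKM per library, and the libraries correlated at 0.912 to 0.935 over the genes tested. All 16 markers of ILC2s were tested and 0 passed (limma; 3 had an unadjusted p under 0.05, Icos, Arg1 and Rora, against 9.18% of all genes tested). The KO libraries lay above the WT libraries in 1 and below them in 5, against 18.5% and 20.6% of all genes tested. Id2, the highest of these markers, was at 4870 and 5317 FPKM in KO and 5017 and 5149 FPKM in WT. Icos, a co-stimulatory receptor, was at 273 and 280 FPKM in KO and 136 and 120 FPKM in WT, and Arg1, an arginase, at 424 and 294 FPKM in KO and 575 and 835 FPKM in WT. Markers of mast cells were also abundant, with Cma1, a mast cell chymase, at 9525 and 17278 FPKM in KO and 6922 and 5622 FPKM in WT. In these bulk libraries, fewer cells of a type and less RNA per cell cannot be told apart.

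None of the 9 tested eicosanoid genes passed the test over all genes (0 of 9, against 0.214% of all genes tested), nor did any with limma run without trend and robust moderation. At an unadjusted p under 0.05 there were 2, Ptgs2 and Ptger4, against 9.18% of all genes tested. In 3 of the 9, Ptgs2, Ptger4 and Alox5, the KO and WT libraries did not overlap, against 39.1% of all genes tested. A positive log2 fold change was found in 6 of the 9, against 49.1% of all genes tested. The median of the 9 was 0.36, against -0.01 over all genes tested. With 1 library left out, the median of the 9 ran from -0.07 (without KO replicate 2) to 0.60 (without KO replicate 1). Ptgs2 had the 47th smallest p of the 9818 genes.

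Prostaglandin synthesis held the largest log2 fold change of the members on the log2(FPKM + 1) scale, that of Ptgs2. Ltc4s, listed at 0 in WT replicate 1, came next at 1.92. With a pseudocount of 0.1, Ltc4s was above Ptgs2 (3.53 against 2.03). Ptgs2, the inducible cyclooxygenase COX-2 (gene 19225, chromosome 1 from 150100031 to 150108234), was at 52.6 and 41.0 FPKM in the KO libraries, against 14.2 and 8.93 FPKM in the WT libraries. Both KO libraries lay above both WT libraries. The mean was 46.8 ± 8.21 FPKM in KO and 11.6 ± 3.74 FPKM in WT (SD, n = 2 each), a ratio of 4.05. The log2 fold change was 1.95 (SE 0.36, 95% interval 1.12 to 2.78), with an unadjusted p of 5.33e-04 and an adjusted p of 0.111 over all genes (limma), so the call was not made. The gene overlaps no other annotated gene in GENCODE M21.

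Ptgs2 is also an immediate-early gene, which responds to handling of cells as well as to signals, and other early genes were looked at for that reason after results of these data were known. Of 18 immediate-early and heat shock genes, 15 had a positive log2 fold change, against 49.1% of all genes tested, and 0 passed the test (limma; 5 had an unadjusted p under 0.05, against 9.18% of all genes tested). The KO libraries lay above the WT libraries in 7 and below them in 2, against 18.5% and 20.6% of all genes tested, and the median log2 fold change was 0.29. Egr1, an early transcription factor, was at 103 and 163 FPKM in KO and at 59.7 and 46.2 FPKM in WT. Dnajb1, a heat shock co-chaperone, was at 146 and 154 FPKM in KO and at 71.0 and 74.6 FPKM in WT. Fos, in contrast, was at 308 and 263 FPKM in KO and at 335 and 316 FPKM in WT. The part of handling in the Ptgs2 difference was not tested.

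Ptgs1, the constitutive cyclooxygenase COX-1 (gene 19224, chromosome 2 from 36216742 to 36258593), was at 0.71 and 4.59 FPKM in KO, against 2.08 and 0.40 FPKM in WT. The groups overlapped, and the difference between the 2 KO libraries, 1.71 on the log2(FPKM + 1) scale, was larger than that of 93.9% of the genes tested. Ptgs2 made up most of the cyclooxygenase level in every library, at 98.7% and 89.9% of Ptgs1 plus Ptgs2 in KO and 87.2% and 95.7% in WT, with no separation of the groups. The log2 fold change of Ptgs1 was 0.57 (95% interval -1.17 to 2.32; limma, adjusted p = 0.873).

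Hpgds, the prostaglandin D synthase of blood-derived cells (gene 54486, chromosome 6 from 65117293 to 65144981), was at 18.7 and 36.4 FPKM in KO, against 30.7 and 18.2 FPKM in WT. The order of the libraries did not follow the groups: KO replicate 2 was highest and WT replicate 2 lowest. The mean was 27.5 ± 12.5 FPKM in KO and 24.5 ± 8.82 FPKM in WT (SD, n = 2 each), with a log2 fold change of 0.14 (95% interval from -0.83 up to 1.102; limma, adjusted p = 0.957). The interval includes 0 and also a log2 difference of 1.

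**Figure D2:**
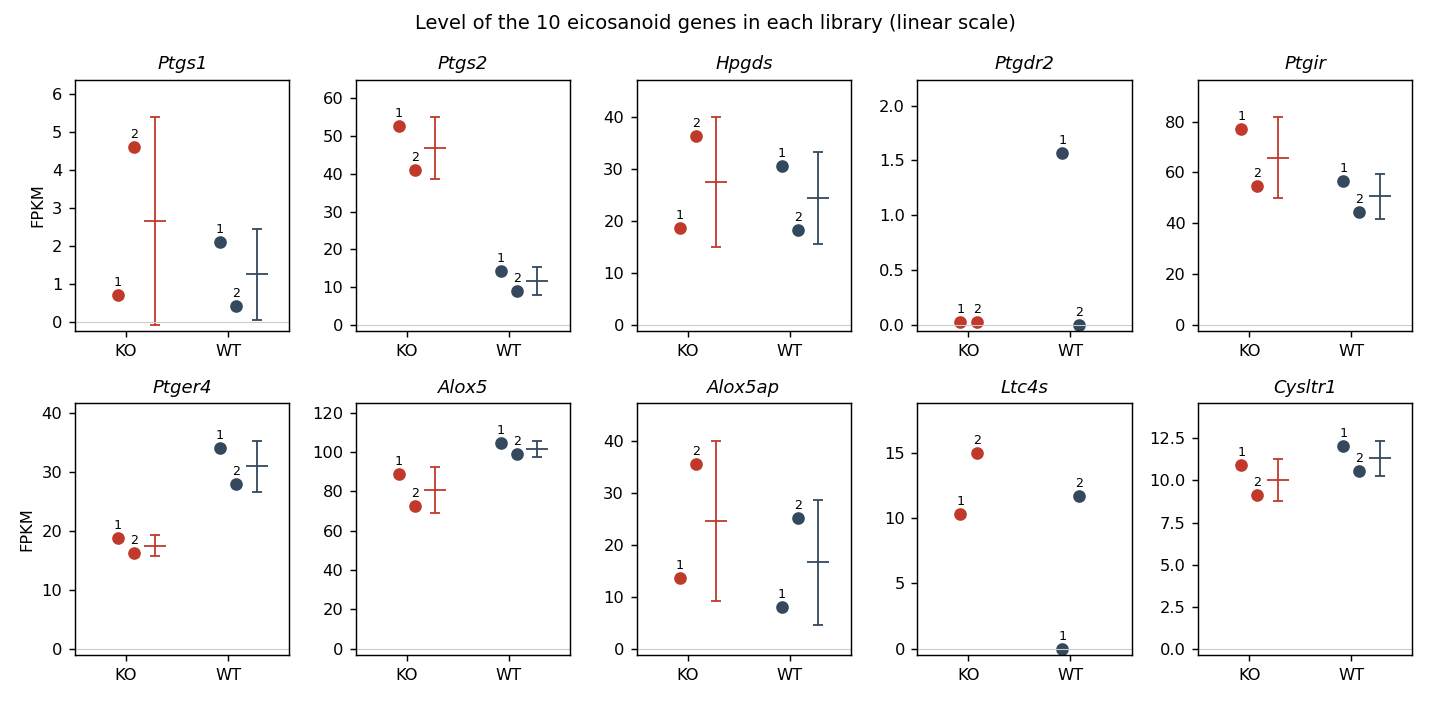
FPKM of the 10 eicosanoid genes in each library on a linear y axis, 1 panel per gene. Points are libraries with their replicate number, KO left and WT right, and bars give mean and SD over 2 libraries, left out for Ptgdr2 and Ltc4s, which are listed at 0 in 1 library; Ptgs2 sits at 41.0 to 52.6 FPKM in KO and 8.93 to 14.2 FPKM in WT.

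Among the prostanoid receptors, the groups stood apart for Ptger4 and overlapped for Ptgir. Ptger4, the prostaglandin E2 receptor EP4, which raises cAMP (gene 19219, chromosome 15 from 5233399 to 5244187), was at 18.7 and 16.3 FPKM in KO, against 34.0 and 27.9 FPKM in WT. Both KO libraries lay below both WT libraries. The mean was 17.5 ± 1.74 FPKM in KO and 30.9 ± 4.32 FPKM in WT (SD, n = 2 each), a log2 fold change of -0.78 (SE 0.33, 95% interval -1.54 to -0.03). The unadjusted p was 0.0434 and the adjusted p 0.537 (limma), so it did not pass. The annotated gene overlaps the gene Ttc33 on the other strand, and without strand information reads of the overlap cannot be told apart.

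Ptgir, the prostacyclin receptor, which also raises cAMP (gene 19222, chromosome 7 from 16906490 to 16910905), was at 77.1 and 54.5 FPKM in KO, against 56.7 and 44.4 FPKM in WT. The groups overlapped, with KO replicate 2 below WT replicate 1. The mean was 65.8 ± 16.0 FPKM in KO and 50.6 ± 8.73 FPKM in WT (SD, n = 2 each), and the log2 fold change 0.36 (95% interval -0.32 to 1.04; limma, adjusted p = 0.776). Within each library, the ratio of Ptger4 to Ptgir was 0.243 and 0.298 in KO and 0.599 and 0.628 in WT. Scaling a library by a single factor does not change this ratio. This ratio was chosen after the values were seen and is given without a test.

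Ptgdr2, which encodes CRTH2 and marks ILC2s in several tissues and in humans, was nearly undetected. It was listed at 0.03 and 0.03 FPKM in KO, against 1.57 and 0.00 FPKM in WT, so that only WT replicate 1 held more than a trace. The gene (gene 14764, chromosome 19 from 10924519 to 10942511) overlaps Ccdc86 on the other strand, and it was below the filter of a mean of 1 FPKM and was not tested. Ptgdr, the other prostaglandin D2 receptor, was listed at 0.00 and 0.00 FPKM in KO and at 0.02 and 0.21 FPKM in WT.

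Leukotriene synthesis held the member of the highest level. Alox5, the 5-lipoxygenase (gene 11689, chromosome 6 from 116410071 to 116461178), was at 88.8 and 72.4 FPKM in KO, against 104.5 and 98.8 FPKM in WT. The KO libraries lay below the WT libraries without overlap, by a small margin. The mean was 80.6 ± 11.6 FPKM in KO and 102 ± 4.02 FPKM in WT (SD, n = 2 each), a log2 fold change of -0.34 (SE 0.25, 95% interval -0.90 to 0.23; limma, adjusted p = 0.734).

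Alox5ap, the 5-lipoxygenase activating protein FLAP (gene 11690, chromosome 5 from 149265004 to 149288153), was at 13.7 and 35.5 FPKM in KO, against 8.04 and 25.1 FPKM in WT. In each group replicate 2 was the higher library, and the groups overlapped. The gap between libraries of a group, 1.31 in KO and 1.53 in WT on the log2(FPKM + 1) scale, exceeded that of 88.7% and 92.6% of the genes tested. The log2 fold change was 0.59 (SE 0.59, 95% interval -0.76 to 1.94; limma, adjusted p = 0.822).

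Ltc4s, the leukotriene C4 synthase (gene 17001, chromosome 11 from 50236461 to 50238532), was at 10.4 and 15.0 FPKM in KO, and was listed at 0.00 FPKM in WT replicate 1 and at 11.7 FPKM in WT replicate 2. The other 3 libraries were thus within a narrow range and WT replicate 1 stood apart. Only 3 genes were listed at 0 in WT replicate 1 while reaching 10 FPKM or more in WT replicate 2, out of 4134 that reached it there, and Ltc4s was 1 of them. Its transcripts are short, with a median of 566.5 nt over 4 coding transcripts, and an antisense gene, Gm26542, overlaps it. Alox5ap, above 0 in every library, has shorter ones, with a median of 452 nt over 3 coding transcripts, and also overlaps an antisense gene, Gm19719. The part of length or antisense overlap in the 0 of Ltc4s was not tested. The log2 fold change was 1.92 (SE 1.00, 95% interval -0.36 to 4.20; limma, adjusted p = 0.582), and without WT replicate 1 it was 0.08.

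Cysltr1, the receptor for cysteinyl leukotrienes CysLT1 (gene 58861, chromosome X from 106576509 to 106603679), was at 10.9 and 9.12 FPKM in KO, against 12.1 and 10.6 FPKM in WT. The 4 libraries lay close together and the groups overlapped. The mean was 10.01 ± 1.26 FPKM in KO and 11.3 ± 1.05 FPKM in WT (SD, n = 2 each), with a log2 fold change of -0.16 (95% interval -1.06 to 0.73; limma, adjusted p = 0.943).

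Set in order of level, Alox5 came first and Ptgir second in both groups, and Ptgs1 and Ptgdr2 last. Ptgs2 was the third in KO and the sixth in WT, while Ptger4 was the sixth in KO and the third in WT. In KO, neighbours in the order whose libraries overlapped were Alox5 with Ptgir, Hpgds with Alox5ap, Alox5ap with Ptger4, and Ltc4s with Cysltr1. In WT, Alox5 was clear of Ptgir and Ptgir of Ptger4, and from Ptger4 down every neighbouring pair overlapped.

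Hpgds and Ltc4s are strongly expressed by mast cells, and Alox5 and Alox5ap by many myeloid cells, so markers of those cells stand beside these results. Summed over the 17 mast cell markers in the table, the level was 25244 and 39567 FPKM in KO, against 16163 and 13516 FPKM in WT, or 2.69% and 4.19% of all FPKM in KO and 1.64% and 1.26% in WT. Of 16 tested mast cell markers, 15 had a positive log2 fold change, against 49.1% of all genes tested. The KO libraries lay above the WT libraries in 14 and below them in 0, against 18.5% and 20.6% of all genes tested. The test was passed upward by 2 (limma), against 0.163% of all genes tested, and by 0 without trend and robust moderation. Cpa3, the mast cell carboxypeptidase, was at 4411 and 9713 FPKM in KO and 4027 and 4038 FPKM in WT; Fcer1a, a chain of the IgE receptor, at 731 and 1018 FPKM in KO and 358 and 335 FPKM in WT; Kit, the receptor of stem cell factor, at 87.8 and 82.9 FPKM in KO and 81.6 and 66.4 FPKM in WT. The 3 basophil markers summed to 562 and 711 FPKM in KO and to 399 and 182 FPKM in WT, led by Prss34.

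Hpgds, Ltc4s and Ptgs2 were also set over the summed mast cell markers of the same library, without a test. Per 1000 FPKM of summed mast cell markers, Hpgds was at 0.741 and 0.9197 FPKM in KO, against 1.90 and 1.35 FPKM in WT. The KO libraries lay below the WT libraries on this scale. Hpgds itself overlapped between the groups, and the summed markers were higher in both KO libraries, which alone lowers the ratio there. Most of the sum came from the protease genes Cma1, Cpa3 and Tpsb2, so it need not follow mast cell RNA as a whole. Ltc4s on that scale was at 0.410 and 0.379 FPKM in KO, against 0.00 and 0.867 FPKM in WT. Ptgs2, set on the same scale after its values were seen, was at 2.08 and 1.04 FPKM in KO and at 0.880 and 0.661 FPKM in WT. Both KO libraries lay above both WT libraries, with a narrower gap than in FPKM: KO replicate 2 was at 1.04 and WT replicate 1 at 0.880. The part of mast cell RNA in the levels of Ptgs2, Hpgds, Ltc4s, Alox5 and Alox5ap was not tested.

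**Figure D3:**
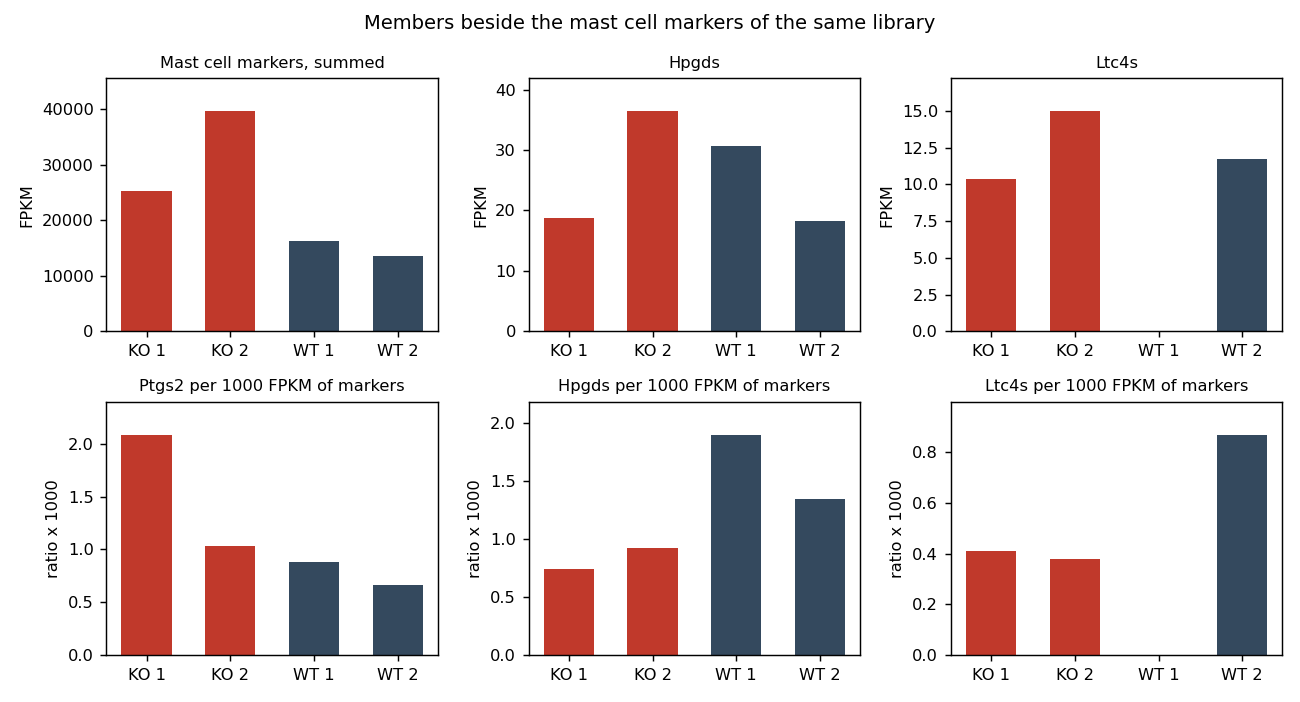
Bars give each library's value, KO left of WT, on linear axes from 0: summed FPKM of 17 mast cell markers, FPKM of Hpgds and Ltc4s, and Ptgs2, Hpgds and Ltc4s per 1000 FPKM of those markers. The summed markers are at 25244 and 39567 FPKM in KO and 16163 and 13516 FPKM in WT, while Hpgds does not separate the groups.

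Markers of macrophages and eosinophils, other known sources of leukotriene enzymes, were low beside those of mast cells, and some were above 1 FPKM in 1 or more libraries. Of 12 macrophage and monocyte markers, 3 were listed at 0 in every library, among them Csf1r, the receptor of the growth factor M-CSF, and the sum was 2.32 and 13.6 FPKM in KO and 0.70 and 7.07 FPKM in WT. Adgre1, which encodes F4/80, was at 0.67 and 0.48 FPKM in KO and at 0.37 and 4.20 FPKM in WT. Cd68, the highest of that list on average, was at 8.66 FPKM in KO replicate 2 and at 0.21 FPKM or less in the other libraries. The sum of 6 eosinophil markers was 1.66 and 0.14 FPKM in KO and 9.84 and 2.07 FPKM in WT, with the KO libraries below the WT libraries. Most of it came from Ccr3, the eotaxin receptor, at 1.31 and 0.05 FPKM in KO and 6.25 and 1.89 FPKM in WT, and Prg2, a granule protein, at 0.00 and 0.00 FPKM in KO and 3.43 and 0.07 FPKM in WT, while Siglecf was at 0.25 and 0.00 FPKM in KO and 0.00 and 0.00 FPKM in WT. Alox5ap was higher in replicate 2 of each group, as was the summed macrophage list. The part of macrophage RNA in the Alox5ap level was not tested. The 4 red blood cell markers summed to 67473.9 and 26657.8 FPKM in KO and 53228.2 and 84109.7 FPKM in WT, with overlap. This exceeded the summed mast cell markers in every library but KO replicate 2. In other lists, Dcn, a stromal gene, was at 0.03 and 1.6 FPKM in KO and 14.68 and 9.24 FPKM in WT. Cd79a, a B cell gene, was at 11.17 and 6.64 FPKM in KO and 1.69 and 0 FPKM in WT. Neither passed (limma, adjusted p = 0.146 and 0.222).

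The wider pathway was read from a list of 56 entries, of which 52 were in the table and 26 were tested. None passed over all genes (0 of 26, limma and limma without trend and robust moderation, against 0.214% of all genes tested), and 4 had an unadjusted p under 0.05, against 9.18% of all genes tested. Log2 fold changes were positive in 14 and negative in 12 of the 26, their median was 0.03, and the groups did not overlap in 11, 6 with KO above and 5 with KO below, against 39.1% of all genes tested, 18.5% with KO above and 20.6% with KO below.

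Upstream of the cyclooxygenases, of 6 tested phospholipase and arachidonate-handling genes 5 had a positive log2 fold change. Pla2g7, which encodes the platelet-activating factor acetylhydrolase, was at 70.5 and 107 FPKM in KO, against 48.3 and 28.8 FPKM in WT, with no overlap and a log2 fold change of 1.20 with an SE of 0.35 (limma, adjusted p = 0.286). Acsl4, which couples arachidonic acid to coenzyme A, was at 39.9 and 46.9 FPKM in KO and at 45.3 and 34.2 FPKM in WT. Pla2g4a, the cytosolic phospholipase that releases arachidonic acid, was at 0.07 and 1.32 FPKM in KO and at 0.56 and 1.19 FPKM in WT, below the filter.

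Downstream of the cyclooxygenases, 2 of 5 tested synthesis genes had a positive log2 fold change. Ptges3, a co-chaperone also described as a prostaglandin E synthase, was at 291 and 348 FPKM in KO and at 347 and 258 FPKM in WT. Akr1b3, an aldo-keto reductase with prostaglandin F synthase activity, was at 59.7 and 70.3 FPKM in KO and at 68.3 and 92.2 FPKM in WT. Of the 3 tested genes of prostanoid breakdown and transport, Ptgr2, a prostaglandin reductase, was at 4.50 and 6.17 FPKM in KO and at 3.84 and 2.18 FPKM in WT, and Ptgr1 at 0.33 and 5.32 FPKM in KO and 3.99 and 3.01 FPKM in WT. Hpgd, the dehydrogenase that inactivates prostaglandins, was listed at 0 in every library but KO replicate 1, at 0.99 FPKM.

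The other receptors of prostaglandin E2 were lower than Ptger4. Ptger2 (EP2, which like EP4 raises cAMP) was at 7.70 and 4.70 FPKM in KO and at 9.26 and 5.85 FPKM in WT, and Ptger3 (EP3, which lowers cAMP) at 6.53 and 8.74 FPKM in KO and 6.13 and 6.09 FPKM in WT. The receptors Ptger1, Ptgfr and Tbxa2r stayed at or below 0.54 FPKM in all 4 libraries.

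On the leukotriene side, of 7 tested enzymes and partners of the lipoxygenases 2 had a positive log2 fold change and 5 a negative one. Cotl1, an actin-binding protein that binds 5-lipoxygenase, was at 257 and 181 FPKM in KO, against 157 and 84.8 FPKM in WT. Its log2 fold change was 0.90 with an SE of 0.32 (limma, adjusted p = 0.433). Mgst2, a relative of Ltc4s that can also make leukotriene C4, was at 42.2 and 32.1 FPKM in KO and at 34.5 and 55.2 FPKM in WT. Among receptors, Ltb4r1, the high-affinity leukotriene B4 receptor, was at 259 and 160 FPKM in KO and at 126 and 140 FPKM in WT, above every member in FPKM. Its log2 fold change was 0.62 with an SE of 0.27 (limma, adjusted p = 0.541). Cysltr2, the other cysteinyl leukotriene receptor, was at 33.2 and 46.0 FPKM in KO and at 48.4 and 44.2 FPKM in WT, higher in FPKM than Cysltr1 in each library.

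**Figure D4:**
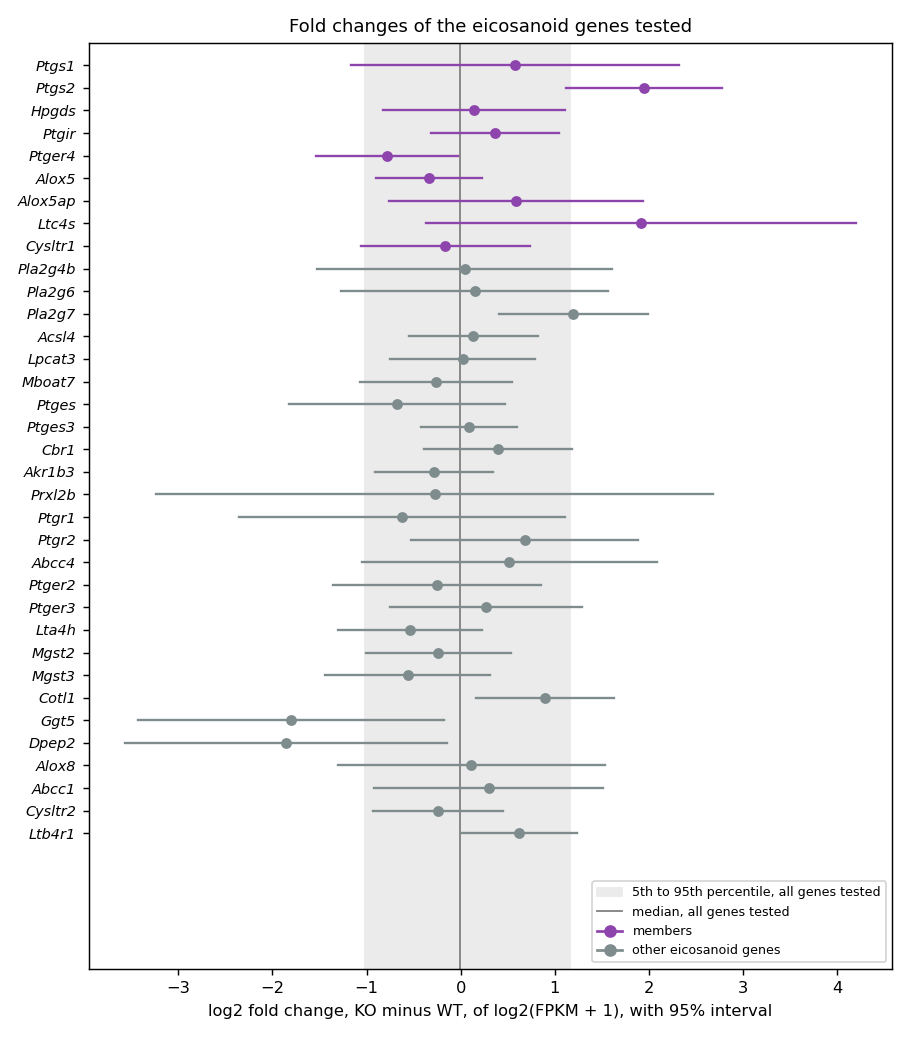
Log2 fold change, KO minus WT, of log2(FPKM + 1) with its 95% interval for the 9 members and 26 other eicosanoid genes tested. The grey band spans the 5th to 95th percentile of all genes tested, -1.01 to 1.16; Ptgs2, at 1.95, and Ltc4s, at 1.92 with an interval from -0.36 to 4.20, lie to its right, as does Pla2g7 at 1.20, and Dpep2 at -1.86 and Ggt5 at -1.80 lie to its left.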

How the data were processed

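RNA was sequenced from ILC2s in 2 KO and 2 WT libraries, grouped by sample title. The authors deposited 1 table of FPKM values rounded to 2 decimals, with 1 column per library. The submitters' processing notes name the build GRCm38.p6 and the tools RSEM, Bowtie2 and DESeq2; what each did, and with which settings, is not given in the sources used here. No column holds counts, and fragments were not recovered from it, so no count model was run, the depth is unknown and no counting intervals are given. RSEM shares reads among similar sequences, and whether strand was used is not stated, so antisense overlaps may be mixed.

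Values were tested as log2(FPKM + 1), on which changes of low genes are understated, with limma 3.58.1 in R 4.3.3 (trend and robust moderation, group as the term) over the 9818 genes averaging 1 FPKM or more, with Benjamini-Hochberg adjustment over all of them and a threshold of 0.05. The code was tested on simulated data. An exact permutation test of 2 against 2 libraries has no p below the threshold, so none was run. The 10 members and all gene lists were chosen with earlier results of these data known. The text names Stk11, all members, the 2 highest genes of each group of the wider list and set cell markers. None of the wider list passed the test. Genes named after their values were seen were Pla2g4a, Hpgd, Ptgdr, Ptger1, Ptgfr, Tbxa2r, Ggt5, Dpep2, Prxl2b, Icos, Arg1 and Rora. So were Ccr3, Prg2, Cd68, Dcn, Cd79a and the early genes. Positions and promoter windows are from RefSeq for GRCm38.p6, and transcripts and overlaps from GENCODE M21 on the same build. Alternatives were 2 pseudocounts, 2 filters, 4 scalings, plain limma, a replicate block and each library left out. Protein sequences were not used here.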

Additional observations from a re-analysis of the deposited data

How the results depend on the processing

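None of the 9 members tested and none of the wider list passed the test under any of the 14 alternatives. Over these, the log2 fold change of Ptgs2 ranged from 1.64 to 2.26 (limma, adjusted p 0.0927 to 0.752) and that of Ptger4 from -0.92 to -0.65 (limma, adjusted p 0.443 to 0.882). Of the 9 members, 6 kept their sign in every alternative in which they were tested; groups that do not overlap cannot turn sign when 1 library is left out. The other 3 turned when 1 library was left out: Ptgs1 ranged from -0.28 to 1.43, Hpgds from -0.33 to 0.60 and Alox5ap from -0.18 to 1.36. Ltc4s ranged from 0.08 without WT replicate 1 to 3.75 without WT replicate 2, and was 3.53 with a pseudocount of 0.1. Of the 2 highest genes of each group of the wider list, those that turned sign on leaving out 1 library were Acsl4 (-0.0635 to 0.33), Mgst2 (-0.57 to 0.0904), Ptger2 (-0.56 to 0.0535), Ptges3 (-0.12 to 0.30) and Ptgr1 (-1.75 to 0.50). So did Id2 (-0.0615 to 0.0649) and Prxl2b (-2.21 to 1.65); Prxl2b was at 0.0931 with a pseudocount of 0.1.

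The count over all genes, 21, depended on the setting: 0 without a filter, 0 with plain limma, 0 with quantile normalization, 0 with a pseudocount of 0.1, 0 with the replicate block and 1 with median-ratio scaling, and 0 to 1 with 1 library left out, against 19 with a pseudocount of 0.5, 20 with a filter of 5 FPKM in 2 libraries, 23 with TPM scaling and 25 with scaling without haemoglobin and mast cell genes; the cause was not tested. Of the mast cell markers, 2 passed, and 2 to 3 did under those last 4 settings and 0 under all others. Scaling to a common total moved the median of all genes by 0.11 on the log2 scale, and scaling without haemoglobin and mast cell genes also by 0.11. The replicate numbers are not tied to a pairing by the labels. The differences between replicates 1 and 2 correlated at 0.025 between KO and WT, which cannot show whether the samples were paired. With the block the number of members called remained 0 (limma, smallest adjusted p 0.11). With 2 libraries a group and unknown depth, differences of the size of that of Alox5 were not detectable. Larger ones were mostly missed too. In the simulated data, a log2 change of 1 was called in 0.8% of the changed genes and a change of 2 in 23.8%. Changes were given there only to genes with a mean log2(FPKM + 1) above that of 5 FPKM. Lower genes, such as Ptgs1, are not covered by these rates. A gene that was not called may therefore still differ.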

Other observations

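Among the genes of enzymes that trim cysteinyl leukotrienes, Ggt5 and Dpep2 were picked out after the values were seen, for being low in KO, and both passed the filter through WT alone; their values are a description. Ggt5, which removes glutamate from leukotriene C4 to give leukotriene D4, was at 0.84 and 0.06 FPKM in KO, against 1.83 and 7.40 FPKM in WT. Dpep2, a dipeptidase that turns leukotriene D4 into leukotriene E4, was at 0.03 and 0.00 FPKM in KO, against 5.14 and 1.20 FPKM in WT. Of their relatives, Ggt1 was at 0.36 and 0.15 FPKM in KO and 0.19 and 0.02 FPKM in WT, and Dpep1 at 0.02 and 0.00 FPKM in KO and 0.00 and 0.00 FPKM in WT, both below the filter.

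Genes listed at 0 in 1 library of a group and at 10 FPKM or more in the other were few. There were 1 and 5 such genes with the 0 in KO replicate 1 and KO replicate 2, and 3 and 4 with the 0 in WT replicate 1 and WT replicate 2. Besides Ltc4s, they included Prxl2b, which encodes a prostamide and prostaglandin F synthase, at 0.09 and 8.05 FPKM in KO and at 13.5 and 0.00 FPKM in WT.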
